A study of Mus musculus with 8 samples.

Results

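The genes described here encode the machinery of ER entry, which receives new secretory and membrane proteins at the endoplasmic reticulum (ER), threads them through the membrane, removes their signal peptides and attaches their first N-linked sugars. They are 34 named genes of 19922 genes measured, taken by gene symbol, and they cover the signal recognition particle (SRP) and its receptor, the Sec61 channel with its partners, the TRAP complex, signal peptidase, oligosaccharyltransferase (OST) and Bag6. The data were 8 single-color Agilent mouse expression arrays of the dentate gyrus (DG) of male C57BL/6 mice aged 8 to 9 weeks, with 2 arrays in each of 4 groups. Derlin-1 controls carried a floxed Derl1 gene on both chromosomes, and Derlin-1 KO mice carried the same floxed gene and a Cre transgene driven by the nestin promoter. Derlin-2 controls and Derlin-2 KO mice differed from each other in the same way for Derl2. The controls were floxed mice without Cre, so Cre itself and loss of the gene cannot be told apart. The nestin promoter is active in neural progenitors and their descendants, so cells of other origin in the tissue, such as microglia and endothelium, would be expected to keep the gene. The comparison addressed here was how loss of either Derlin, a membrane protein of the ER quality control system, was accompanied by differences in transcripts of the entry machinery.

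As background, SRP binds a signal sequence as it emerges from the ribosome and docks on the SRP receptor at the ER membrane. The nascent chain is then passed to the Sec61 channel, with TRAP, Sec62, Sec63 and TRAM assisting. Signal peptidase cuts off the signal peptide, and OST transfers a preassembled sugar tree to asparagines of the entering chain. Many of these genes are transcribed throughout the brain, and several are known to respond to ER stress through the unfolded protein response. Derlins act where misfolded proteins are taken out of the ER. The authors state that Derlin-1 also mediates a pre-emptive quality control induced by ER stress. They cite work on its association with the translocon, the channel of ER entry.

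All values are log2 signals after quantile normalization, on which a difference of 1 is a 2-fold change, and each gene is represented by its brightest probe. Between 67.6% and 70.8% of probes were well above background on each array, and no spot was saturated. Correlations between arrays ranged from 0.987 to 0.995 within a group, from 0.988 to 0.994 between the 2 groups on a slide and from 0.966 to 0.985 across slides. Each line was hybridized on a slide of its own, so line and slide cannot be told apart. Nothing in the labels says that the 2 arrays of a group came from separate mice, so the p-values measure only the spread between these arrays. The brightest Derl2 probe was lower in Derlin-2 KO by 0.64 (SE 0.10, adjusted p = 0.259 in limma), and all 4 arrays of that line were ordered accordingly. For Derl1 the brightest probe differed by -0.19 (SE 0.10) in Derlin-1 KO and a dimmer one by 0.46 (SE 0.12), so the Derl1 signal does not check the Derlin-1 labels, and every Derlin-1 direction below rests on those labels. Whether either probe lies in the deleted segment was not determined here. Markers of dentate granule neurons, among them Prox1 and Calb1, were well above background on all 8 arrays.

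All 34 genes were measured, on 69 probes, and the brightest probe of each was well above background on all 8 arrays. With limma and Benjamini-Hochberg adjustment over all probes, 0 of the 34 genes passed an adjusted p of 0.05 in the Derlin-1 line, where 0% of genes passed in either direction. The count was also 0 in the Derlin-2 line, where 0.0151% of genes passed as higher and 0.0303% as lower. At an unadjusted p under 0.05, 1 member was higher in Derlin-1 KO, against 2.62% of genes higher and 1.63% lower. In Derlin-2 KO 2 members were lower and 0 higher, against 2.13% and 2.62% of genes. These 3 calls are Sec61b, Srprb and Rpn1. For the mean of the KO effects over both lines, 0 members passed the adjusted threshold, against 0.0101% of genes lower and 0% higher. At an unadjusted p under 0.05 the mean effect counted 1 member higher and 1 lower, against 2.36% and 2.18% of genes.

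Differences between KO and control were small throughout. They ranged from -0.22 to 0.37 for Derlin-1 KO and from -0.43 to 0.25 for Derlin-2 KO, with a median SE of 0.12 in each. In the Derlin-1 line 23 of 34 members had a difference above 0, against 46.1% of all genes, and the median member difference was 0.06 against -0.01 for all genes. The Derlin-2 line gave 23 of 34 above 0, against 54.3% of all genes, with medians of 0.06 and 0.02. In both lines at once 16 members lay above 0, against 25.6% of genes. Single arrays moved these medians by more than 1.5 times. Without Derlin-1 control 1 the Derlin-1 median was 0.12 and without Derlin-1 control 2 it was 0.03, and without Derlin-2 KO 2 the Derlin-2 median was 0.01.

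**Figure D1:**
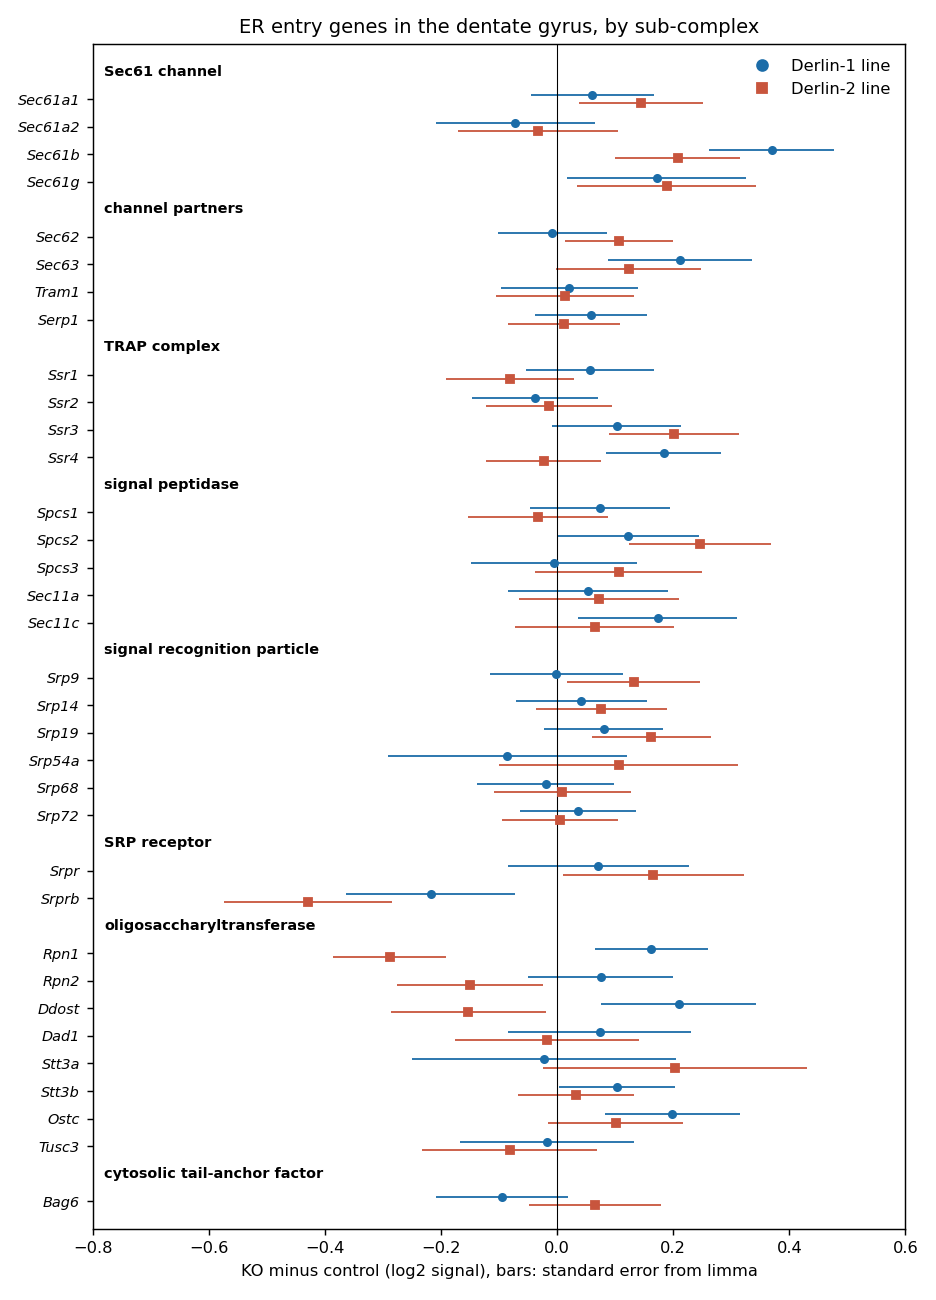
KO minus control difference in log2 signal (horizontal axis) of each of the 34 genes (vertical axis), grouped by sub-complex, in the Derlin-1 line (blue circles) and the Derlin-2 line (red squares). Bars are limma standard errors; most bars reach close to or across 0, Sec61b lies to the right in both lines, Srprb to the left in both, and Rpn1 on opposite sides.

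The order of the arrays was counted next. With 2 arrays against 2, the smallest two-sided p of an exact permutation test is 0.333, so the counts are descriptions. Both Derlin-1 KO arrays lay above both Derlin-1 controls for 12 of 34 members, against 17.2% of all genes, and below both for 2, against 16.9%. In the Derlin-2 line both KO arrays lay above both controls for 8 members, against 19.2% of genes, and below both for 2, against 13.6%. The share above was thus over the background for Derlin-1 and nearer to it for Derlin-2. In both lines together 5 members, Sec61b, Sec61g, Ssr3, Spcs2 and Srp19, lay above their controls, against 3.25% of genes. By these brightest probes Srprb alone among the members lay below in both, where 2.57% of genes did. Rpn1 alone lay above in Derlin-1 KO and below in Derlin-2 KO, where 2.34% of genes did, although dimmer probes of Ssr4, Tusc3 and Stt3a had that order too. The reverse order held for 0 members and for 3.24% of genes. With the log2 values as deposited by the authors, Sec61b and Spcs2 kept that place above the controls in both lines and Sec61g, Ssr3 and Srp19 did not. With normexp background correction Sec61b and Spcs2 kept it, and Ostc joined them. Rpn1 kept its opposite order in all of these settings, and Srprb was below in both lines in none of the 3 other scalings.

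**Figure D2:**
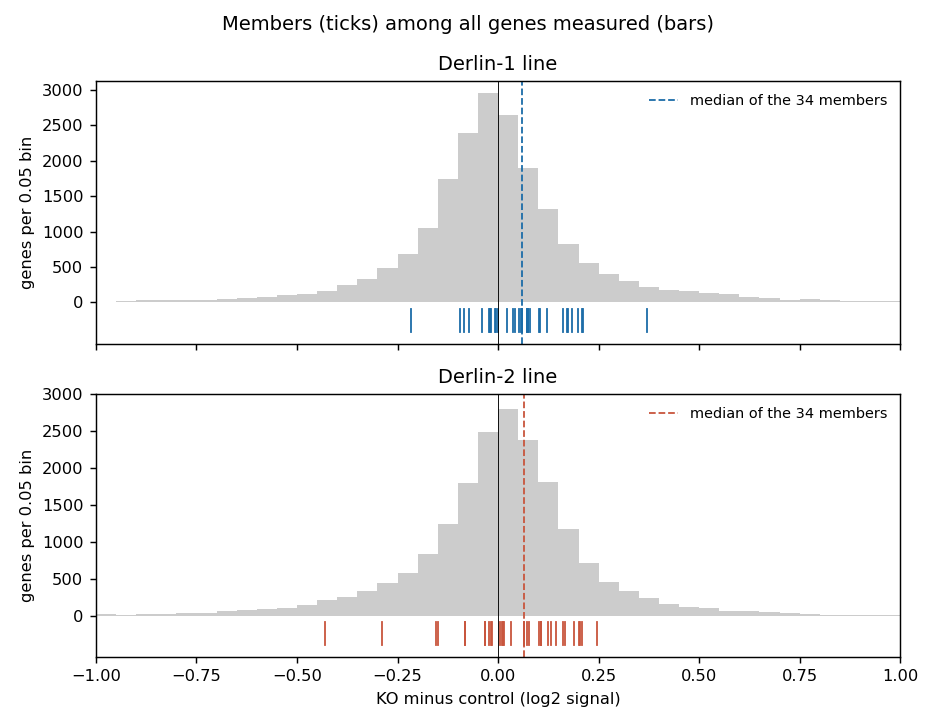
Distribution of KO minus control differences in log2 signal (horizontal axis) over all genes measured (grey bars, genes per bin of 0.05) in the Derlin-1 line (upper panel) and the Derlin-2 line (lower panel), drawn from -1 to 1. Colored ticks are the 34 members and the dashed line is their median, at 0.06 in both lines.

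The Sec61 channel is the pore itself, formed by an alpha subunit with the small beta and gamma subunits. Sec61b, the beta subunit, read 14.27 and 14.49 in Derlin-1 controls and 14.74 and 14.76 in Derlin-1 KO. Its Derlin-2 values were 14.19 and 14.20 for controls, then 14.41 and 14.40 for KO. All 4 KO arrays were above the controls of their line and the groups did not overlap. Derlin-1 KO exceeded control by 0.37 (SE 0.11, adjusted p = 0.9997 in limma) and Derlin-2 KO by 0.21 (SE 0.11, adjusted p = 0.956 in limma). Its mean over both lines, 0.29 (SE 0.08), had the smallest p of any member at 0.0088 before adjustment in limma and 0.942 after it. Sec61b remained above 0 in each line under every setting tried, between 0.26 and 0.48 for Derlin-1 and between 0.20 and 0.28 for Derlin-2. A second Sec61b probe differed by 0.24 (SE 0.11) and 0.19 (SE 0.11).

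Sec61g, the gamma subunit, read 13.85 and 14.16 in Derlin-1 controls and 14.16 and 14.18 in Derlin-1 KO. In the Derlin-2 line the values were 13.90 and 14.21 in controls and 14.26 and 14.22 in KO. The KO arrays were higher in both lines, but the higher control of each line lay within 0.02 of the lower KO array. The differences of 0.17 and 0.19 (SE 0.15 each, adjusted p = 0.9997 and 0.998 in limma) were close to the spread between arrays, and a second probe gave 0.15 and 0.12 (SE 0.11 each). Of the alpha subunits, Sec61a1, the common form of the pore, differed by 0.06 and 0.14 (SE 0.11 each). The paralog Sec61a2 differed by -0.07 and -0.03 (SE 0.14 each), and its dimmer probes gave both signs.

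Among the channel partners, Sec63 recruits the luminal chaperone BiP to the channel. It read 11.80 and 11.67 in Derlin-1 controls and 11.97 and 11.93 in Derlin-1 KO. Its Derlin-2 values were 11.47 and 11.55 in controls and 11.76 and 11.50 in KO. The groups were apart for Derlin-1 and overlapped for Derlin-2, with differences of 0.21 and 0.12 (SE 0.12 each, adjusted p = 0.9997 and 0.998 in limma). Sec62, which works with Sec63 on short or weakly targeted proteins, differed by -0.01 and 0.11 (SE 0.09 each). Tram1, which contacts the entering chain, and Serp1, a small stress-associated partner of Sec61, differed by at most 0.06 in either line.

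The TRAP complex sits beside the channel and helps some signal sequences insert. Ssr3, its gamma subunit, read 13.15 and 12.99 in Derlin-1 controls against 13.18 and 13.17 in KO. For Derlin-2 the control arrays gave 12.76 and 12.92 and the KO arrays 13.08 and 13.00. All KO values were the higher ones of their line, by 0.10 and 0.20 (SE 0.11 each, adjusted p = 0.9997 and 0.965 in limma). Ssr4, the delta subunit, read 13.66 and 13.78 in Derlin-1 controls and 13.94 and 13.87 in KO, a difference of 0.18 (SE 0.10). Its Derlin-2 values of 13.78 and 13.84 in controls and 13.75 and 13.82 in KO overlapped. The difference between the lines was 0.21 (SE 0.14, adjusted p = 0.91 in limma). A second, dimmer Ssr4 probe differed by 0.28 and -0.09 (SE 0.10 each), with its groups apart in both lines and ordered in opposite ways. For that probe the difference between the lines was 0.37 (SE 0.14, adjusted p = 0.825 in limma). Ssr1 and Ssr2, the alpha and beta subunits, lay between -0.08 and 0.06 in both lines.

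Signal peptidase combines a catalytic subunit, Sec11a or Sec11c, with Spcs1, Spcs2 and Spcs3. Spcs2 read 11.28 and 11.23 in Derlin-1 controls and 11.34 and 11.42 in KO. On the Derlin-2 arrays it read 10.89 and 11.18 in controls against 11.31 and 11.26 in KO. The KO arrays were the higher ones in both lines, by 0.12 and 0.25 (SE 0.12 each, adjusted p = 0.9997 and 0.953 in limma). The other 4 subunits ranged from -0.005 to 0.17 for Derlin-1 and from -0.03 to 0.11 for Derlin-2. Sec11c, with the largest of these, had both Derlin-1 KO arrays above its controls.

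SRP is a ribonucleoprotein whose subunits Srp9 and Srp14 pause translation, Srp54 reads the signal sequence, and Srp19, Srp68 and Srp72 assemble the particle. Srp19 read 12.52 and 12.59 in Derlin-1 controls and 12.67 and 12.61 in KO. For Derlin-2 the control arrays gave 12.50 and 12.66 and the KO arrays 12.74 and 12.76. Its KO arrays were higher in both lines by narrow margins, 0.08 and 0.16 on average (SE 0.10 each, adjusted p = 0.9997 and 0.979 in limma). The 6 SRP proteins as a set ranged from -0.09 to 0.08 for Derlin-1 and from 0.01 to 0.16 for Derlin-2. For Derlin-1 3 of the 6 were above 0, against 46.1% of all genes, and for Derlin-2 all 6, against 54.3%. None of the other 5 had its KO arrays apart from the controls in both lines.

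The SRP receptor has a peripheral subunit, encoded by Srpr, and a membrane anchor, encoded by Srprb. Srprb read 8.15 and 7.75 in Derlin-1 controls and 7.73 and 7.73 in Derlin-1 KO. For Derlin-2 the control arrays gave 8.16 and 8.23 and the KO arrays 7.77 and 7.76. The Derlin-2 groups were well apart, whereas Derlin-1 control 2 lay within 0.02 of the Derlin-1 KO arrays. The difference was -0.43 (SE 0.15, adjusted p = 0.811 in limma) in the Derlin-2 line and -0.22 (SE 0.15, adjusted p = 0.9997) in the Derlin-1 line. A second, dimmer probe differed by -0.35 (SE 0.19) in both. Across all settings the Srprb difference ran from -0.42 to -0.02 in the Derlin-1 line, with the value nearest 0 reached without Derlin-1 control 1, and from -0.46 to -0.29 in the Derlin-2 line. The brightest Srpr probe differed the other way, by 0.07 and 0.17 (SE 0.16 each), with overlapping groups. A dimmer Srpr probe had the opposite sign in the Derlin-1 line, at -0.94 and 0.66 (SE 0.58 each), and another gave 0.38 and 0.24 (SE 0.20 each).

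**Figure D3:**
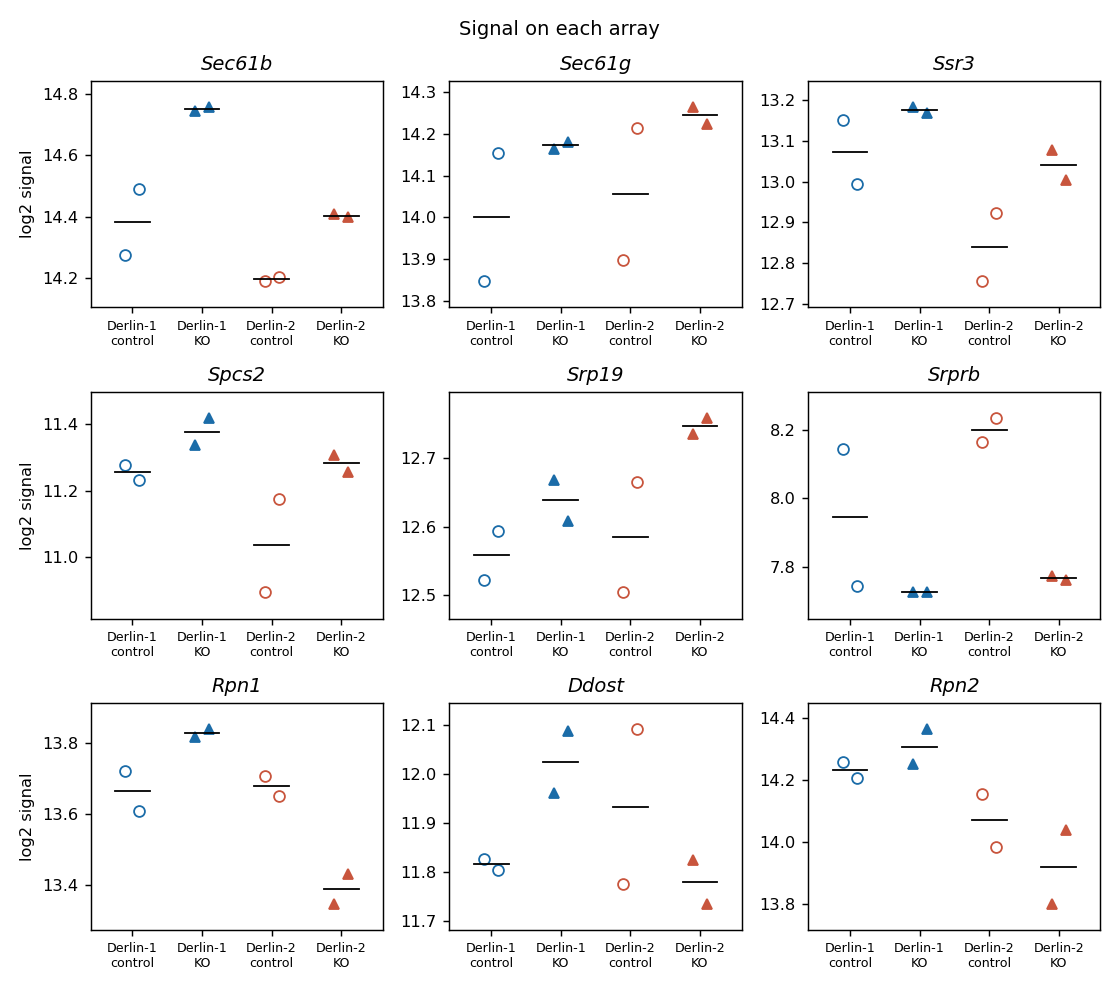
Log2 signal (vertical axis, scaled for each gene) of 9 members on each of the 8 arrays, by group. Open circles are controls, filled triangles are KO, blue is the Derlin-1 line, red is the Derlin-2 line, and the horizontal bar is the mean of 2 arrays; Sec61b separates KO from control upward in both lines, and Rpn1 upward for Derlin-1 and downward for Derlin-2.

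OST is built from a catalytic subunit, Stt3a or Stt3b, and shared subunits that include ribophorin I (Rpn1), ribophorin II (Rpn2), Ddost and Dad1. Rpn1 read 13.72 and 13.61 in Derlin-1 controls and 13.82 and 13.84 in Derlin-1 KO. In the Derlin-2 line it read 13.71 and 13.65 in controls against 13.35 and 13.43 in KO. The groups did not overlap in either line and were ordered in opposite ways. The Derlin-1 effect was 0.16 (SE 0.10, adjusted p = 0.9997 in limma) and the Derlin-2 effect -0.29 (SE 0.10, adjusted p = 0.811 in limma). The test of the difference between the lines gave 0.45 (SE 0.14, adjusted p = 0.762 in limma). For this contrast 0 members passed the adjusted threshold, against 0.00505% of genes in the direction of Rpn1, 1 passed the unadjusted one in that direction, against 2.44%, and 0 in the other, against 2.12%.

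Ddost read 11.83 and 11.80 in Derlin-1 controls and 11.96 and 12.09 in KO. Its Derlin-2 values were 11.77 and 12.09 in controls and 11.82 and 11.74 in KO. Here the groups were apart in the Derlin-1 line only, and the Derlin-2 controls enclosed one of the KO arrays. The effects were 0.21 and -0.15 (SE 0.13 each), and their difference was 0.36 (SE 0.19, adjusted p = 0.87 in limma). Rpn2 read 14.26 and 14.21 in Derlin-1 controls and 14.25 and 14.36 in KO. In the Derlin-2 line it read 14.15 and 13.98 in controls against 13.80 and 14.04 in KO. Its groups overlapped in both lines, with effects of 0.07 and -0.15 (SE 0.13 each) and a difference of 0.22 (SE 0.18, adjusted p = 0.928 in limma). A dimmer Rpn2 probe had the opposite sign in the Derlin-1 line, at -0.15 (SE 0.13). Rpn1 and Ddost had 1 probe each, so their values could not be compared with a second one.

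By their brightest probes none of the other OST genes, Ddost and Rpn2 included, had the array order of Rpn1. Dad1, like Ddost and Rpn2, shared only its signs, at 0.07 and -0.02 (SE 0.16 each). Ostc, a subunit of the Stt3a form, read 11.46 and 11.31 in Derlin-1 controls and 11.51 and 11.66 in KO. On the Derlin-2 arrays it read 11.02 and 11.14 in controls against 11.13 and 11.24 in KO. Ostc was higher in KO in both lines on average, by 0.20 and 0.10 (SE 0.12 each, adjusted p = 0.9997 and 0.998 in limma), with overlap in the Derlin-2 line. Dad1, Stt3a, Stt3b and Tusc3 ranged from -0.02 to 0.10 for Derlin-1 and from -0.08 to 0.20 for Derlin-2. Stt3a was the dimmest member, at 6.47 to 7.08, and its 3 dimmer probes disagreed in sign with the brightest one in the Derlin-1 line. One of them had the Rpn1 order, with differences of 0.24 and -0.46 (SE 0.19 each). A dim Tusc3 probe also had that order, at 0.31 and -1.42 (SE 0.39 each), whereas a brighter second one gave -0.10 and -0.17 (SE 0.18 each). Bag6, the cytosolic factor that captures tail-anchored and mislocalized membrane proteins, differed by -0.10 and 0.06 (SE 0.11 each). Both of its Derlin-1 KO arrays lay below the controls, and its dimmer probes gave both signs.

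**Figure D4:**
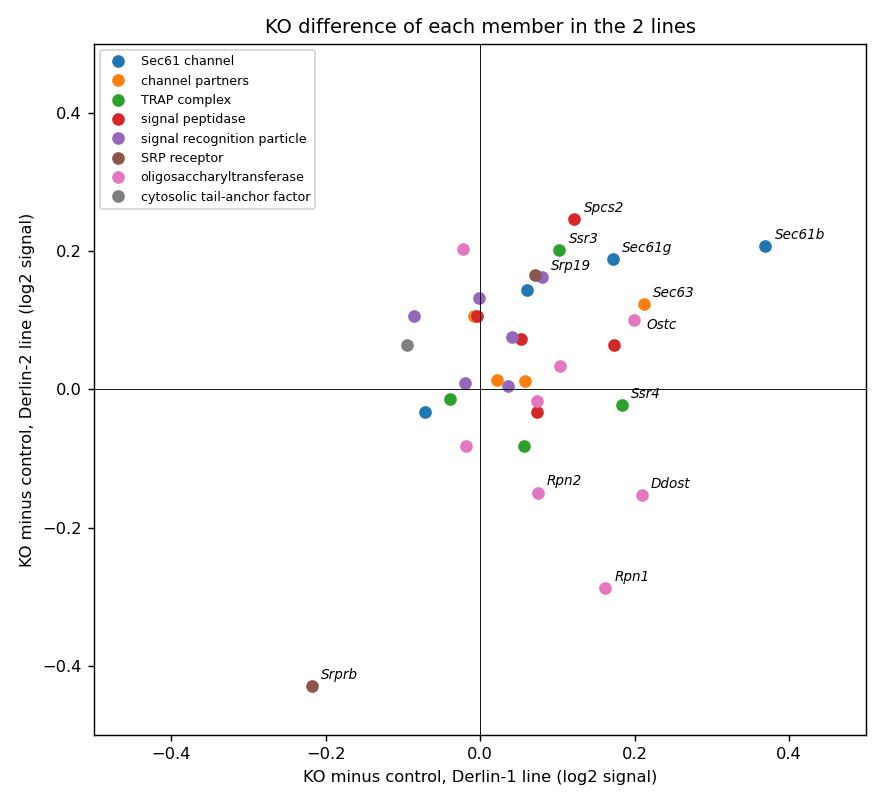
KO minus control difference in log2 signal of each of the 34 members in the Derlin-1 line (horizontal axis) against the Derlin-2 line (vertical axis), colored by sub-complex. Of the genes named in the plot, Sec61b, Sec61g, Ssr3, Spcs2, Srp19, Sec63 and Ostc lie in the upper right and Srprb in the lower left. Rpn1, Rpn2, Ddost and Ssr4 lie in the lower right. Of the genes not named there, Ssr1, Spcs1 and Dad1 lie in the lower right and Sec61a2, Ssr2 and Tusc3 in the lower left.

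Marker genes of other cell types gave the following values beside these differences. Of 7 interneuron markers, including Gad1 and Sst, 4 had both Derlin-1 KO arrays above the controls and 1 below, and 4 had both Derlin-2 KO arrays below and 0 above. Their mean log2 signal was 12.32 to 12.34 in Derlin-1 controls, 12.37 to 12.53 in Derlin-1 KO, 12.83 to 12.96 in Derlin-2 controls and 12.70 to 12.71 in Derlin-2 KO. The order of these means was that of Rpn1 in each line, but among the single markers only Sst and Npy had it. Gad1 and Gad2 were apart in the Derlin-1 line only and Vip in the Derlin-2 line only. Slc32a1 was below its controls in both lines, and Pvalb overlapped in both. The part of interneurons in the Rpn1 result was not tested. Of 6 microglial markers 4 lay below the controls and 0 above in Derlin-1 KO, and 0 below and 1 above in Derlin-2 KO. Of 6 astrocyte markers 4 lay below and 0 above in Derlin-1 KO, and 3 below and 2 above in Derlin-2 KO. Of 6 oligodendrocyte markers 0 lay above or below in either line. Of 6 endothelial markers 1 lay above and 1 below in Derlin-1 KO, and 2 above and 1 below in Derlin-2 KO. Over all genes 17.2% lay above and 16.9% below in Derlin-1 KO, and 19.2% above and 13.6% below in Derlin-2 KO. Astrocyte markers averaged 13.44 to 13.57 in Derlin-1 controls and 13.43 to 13.46 in Derlin-1 KO, and 13.34 to 13.35 in Derlin-2 controls and 13.25 to 13.36 in Derlin-2 KO. The 8 choroid plexus markers had means from 7.23 to 7.88 on Derlin-1 arrays and from 7.90 to 8.81 on Derlin-2 arrays. The 4 blood markers measured averaged 13.13 on Derlin-1 control 2, the array whose removal lowered the Derlin-1 median, and 12.03 to 12.15 on the other 3 arrays of that line. Dentate granule markers averaged 12.34 on Derlin-1 control 1 and 11.97 on control 2, and 12.22 and 11.95 in Derlin-1 KO. On Derlin-2 arrays they averaged 11.61 to 11.73. Markers of CA pyramidal neurons averaged 10.29 and 10.57 in Derlin-1 controls, 10.28 and 10.62 in Derlin-1 KO, and 10.72 to 10.77 on Derlin-2 arrays. No defining marker of these lists was at 0, and Kcne2 of choroid plexus was the only one not well above background on every array. The part of these cell types in the differences above was not tested, and in bulk tissue fewer cells of a type and less RNA per cell cannot be told apart.

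The other genes of ER entry were followed on a list of 46 symbols, of which 41 were measured. In limma 0 of the 41 passed the adjusted threshold in either line, and 3 were higher at an unadjusted p under 0.05 in each, against 2.62% of all genes in each, with 0 lower. Both KO arrays lay above both controls for 15 of 41 for Derlin-1 and 12 of 41 for Derlin-2, against 17.2% and 19.2% of all genes, and below for 3 and 6, against 16.9% and 13.6%. The 6 genes of the luminal BiP system made up 5 and 3 of those above, and 0 and 1 of those below. Of the 4 genes of smallest p, Hspa5, Hyou1 and Dnajc3 belong to the BiP system on the luminal side of the channel and Magt1 to OST. Hspa5, which encodes BiP, the chaperone that pulls chains through Sec61 and a classic target of the unfolded protein response, read 13.95 and 13.84 in Derlin-1 controls and 14.58 and 14.52 in KO. Its Derlin-2 values were 13.79 and 14.02 in controls and 14.36 and 14.41 in KO. The groups were apart in both lines, by 0.66 and 0.48 (SE 0.12 each, adjusted p = 0.9997 and 0.587 in limma), a larger difference than that of any of the 34 members.

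Hyou1, a BiP cofactor, read 6.44 and 6.46 in Derlin-1 controls and 6.67 and 6.76 in KO, and 6.49 and 6.48 in Derlin-2 controls and 6.81 and 6.72 in KO. It too was apart in both lines, by 0.27 and 0.28 (SE 0.09 each, adjusted p = 0.9997 and 0.808 in limma). Dnajc3, a luminal co-chaperone of BiP, read 9.38 and 9.25 in Derlin-1 controls, 9.42 and 9.48 in KO, 9.15 and 8.99 in Derlin-2 controls and 9.47 and 9.33 in KO. Its differences were 0.14 and 0.33 (SE 0.11 each, adjusted p = 0.9997 and 0.815 in limma). Magt1, a subunit of the Stt3b form of OST and a paralog of Tusc3, read 8.11 and 7.92 in Derlin-1 controls, 8.67 and 8.31 in KO, 7.54 and 7.76 in Derlin-2 controls and 7.85 and 7.82 in KO. Magt1 was higher by 0.48 and 0.18 (SE 0.16 each, adjusted p = 0.9997 and 0.998 in limma), whereas Tusc3 differed by -0.02 and -0.08 (SE 0.15 each). Of the 10 subunits of the EMC insertase 3 were above 0 for Derlin-1 and 7 for Derlin-2, against 46.1% and 54.3% of all genes. Of 6 genes of the multipass translocon, which cooperates with Sec61 on proteins with many membrane spans, 3 and 1 were, against the same shares.

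Promoter sequences are shown for the 4 members of smallest p in the mean KO effect, since Hspa5 carries the ER stress element (ERSE) in its promoter and these members can be read against it. The sequences are the 250 bases before the start site in RefSeq annotation of GRCm38.p6, 5′ to 3′ on the gene's strand, and capitals would mark a motif match:
Sec61b, chr4:47474411-47474660, plus strand: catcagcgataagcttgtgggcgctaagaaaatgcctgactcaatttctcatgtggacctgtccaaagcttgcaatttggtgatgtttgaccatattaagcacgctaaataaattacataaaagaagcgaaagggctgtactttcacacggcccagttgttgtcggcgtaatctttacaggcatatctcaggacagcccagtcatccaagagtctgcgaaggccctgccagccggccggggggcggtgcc
Srprb, chr9:103202066-103202315, minus strand: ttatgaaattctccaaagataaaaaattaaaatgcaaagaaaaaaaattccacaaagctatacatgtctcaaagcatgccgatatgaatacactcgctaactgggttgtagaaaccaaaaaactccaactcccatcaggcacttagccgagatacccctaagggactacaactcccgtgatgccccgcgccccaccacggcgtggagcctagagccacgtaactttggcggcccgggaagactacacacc
Spcs2, chr7:99858884-99859133, minus strand: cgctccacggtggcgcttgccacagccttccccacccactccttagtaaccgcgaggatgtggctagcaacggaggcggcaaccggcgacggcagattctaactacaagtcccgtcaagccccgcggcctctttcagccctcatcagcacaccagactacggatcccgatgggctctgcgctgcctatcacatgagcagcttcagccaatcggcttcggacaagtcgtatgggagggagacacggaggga
Ssr3, chr3:65392554-65392803, minus strand: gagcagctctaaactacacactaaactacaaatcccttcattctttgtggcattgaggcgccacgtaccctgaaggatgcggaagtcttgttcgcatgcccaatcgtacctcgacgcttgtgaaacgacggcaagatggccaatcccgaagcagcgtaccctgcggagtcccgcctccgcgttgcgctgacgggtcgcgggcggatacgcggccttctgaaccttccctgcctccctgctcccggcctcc
Hspa5 site, chr2:34772025-34772043, plus strand: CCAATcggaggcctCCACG

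In the Hspa5 site capitals mark the fixed letters of ERSE, CCAAT and CCACG with 9 bases of any kind between them, and the site begins 65 bases before the start. The search covered 250 bases before to 50 after each start on both strands for ERSE, for ATTGG and CCACG with 1 base between (ERSE-II), and for TGACGTGG (UPRE). These motifs share the letters CCACG or ACGTGG in part and can overlap. ERSE was found in 0.119% of 32851 promoters, ERSE-II in 0.0365% and UPRE in 0.676%. The table held 26 promoters of 25 members, 2 of them of Rpn2, and none had a match to any of the 3 motifs, and 0.822% of all promoters held at least 1. The absence says only that these letters are not in these windows.

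The 2 lines were also compared with each other, after the values had been seen, because several SRP genes differed between slides. The contrast is the mean of the 4 Derlin-2 arrays minus that of the 4 Derlin-1 arrays, and line and slide cannot be told apart in it. In limma 1 member passed an adjusted p of 0.05 as higher, against 13% of genes, and 6 as lower, against 14.4%. Srp54a was the higher one. It read 11.23, 11.78, 11.35 and 11.48 on the Derlin-1 arrays and 12.25, 12.56, 12.57 and 12.45 on the Derlin-2 arrays, so the lines did not overlap whatever the genotype. The difference was 0.99 (SE 0.15, adjusted p = 0.0084), and its other probes gave 1.21 and 0.90. Mice have near-identical copies of this gene, whose transcripts 1 probe may detect together. Srp54b differed by -0.85 (SE 0.25, adjusted p = 0.046) and Srp54c by 0.09 (SE 0.13, adjusted p = 0.603) in the same contrast. The lower ones were Srp68, Srp72, Ostc, Srp9, Sec61b and Sec62, by 0.37 to 0.22. Other probes did not all follow: those of Srp72 differed by 0.12 and -0.23, that of Sec61b by 0.01 and that of Srp9 by -0.03. With the kept probes of a gene averaged, Sec61b, Srp9 and Srp72 no longer passed (adjusted p = 0.21, 0.187 and 0.114 in limma). The share of members called was near the background, and without any one of the 4 KO arrays Srp54a alone passed.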

How the data were processed

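The DG arrays were read by the authors with Agilent Feature Extraction 10.7.1.1 per the labels, and the deposited intensity values are processed signals, already background-corrected. The authors also deposited log2 values normalized in GeneSpring, used here as an alternative; their fold-change columns were not used. Control spots were left out, signals below 1 were set to 1, log2 values were quantile normalized over the 8 arrays, outlier-flagged spots were left out and copies of a probe averaged. Of 56605 probes, 40001 were kept, those well above background on both arrays of at least 1 group. A probe set to missing on both arrays of a group has no test there. Groups came from the titles and symbols from the deposited tables. limma 3.58.1 in R 4.3.3 fitted the 4 group means (4 residual and 2.07 prior degrees of freedom), with Benjamini-Hochberg adjustment over all probes, and the calculation was tested on simulated data. The threshold was an adjusted p of 0.05. Values on every array are given for members whose KO arrays lie on 1 side of the controls in both lines and for the 6 members of smallest p in each of 4 contrasts (each line, their mean, their difference), and the other genes named are the 3 of smallest p in each line. The members, lists and rules were chosen with earlier results of these data known. The number of arrays limits the precision.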

Additional observations from a re-analysis of the deposited data

Results flagged for a closer look

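Rpn1 was singled out because its KO arrays lay above the controls in the Derlin-1 line and below them in the Derlin-2 line. Its effects differed between the lines by 0.45 on the log2 scale (SE 0.14, adjusted p = 0.762 in limma).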

How the results depend on the processing

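In each KO contrast 0 of 34 members passed the adjusted threshold under every setting that could be run, and each gene named by rule kept its direction in all of them in the contrasts that named it. Over both lines 24 of 34 members changed sign in at least 1 setting, among the genes given array by array Sec63, Ssr4 and Ddost in the Derlin-2 line and Rpn2 in the Derlin-1 line, with Srp54a in both. Beside the 23 and 23 members above 0 in the Derlin-1 and Derlin-2 lines, 75th percentile scaling gave 26 and 27, normexp 25 and 24 and the deposited log2 values 23 and 27. Normexp used the median spot and background signals. The median member difference in the Derlin-2 line was 0.0234 without the last eighth of array rows, where 32 members could be measured. Leaving out single arrays gave medians of 0.028 to 0.122 in the Derlin-1 line, 0.00998 to 0.0685 in the Derlin-2 line, 0.0274 to 0.0774 for their mean and -0.0347 to 0.0617 for their difference, against -0.005 with all arrays. Members with both KO arrays below the controls in the Derlin-1 line numbered 0 with 75th percentile scaling, 1 with normexp and 1 with the deposited values. Members above in both lines numbered 3 with normexp and 2 with the deposited values, and members below in both lines 0, 0 and 0 in these 3 scalings. With 1 array left out, which loosens the order required, the counts were 12 to 25 above and 2 to 13 below in the Derlin-1 line, 8 to 19 above and 2 to 8 below in the Derlin-2 line, and 5 to 8 above in both. Between the lines, 7 members passed, against 4 with 75th percentile scaling, 11 with normexp, 4 with the deposited values, 12 with an intensity trend and 1 to 7 with 1 array left out. The cause was not tested. Replicate numbers are shared by the groups, but the arrays of 1 number did not deviate together in both lines (r = 0.27 and -0.10 over 40001 probes). A fit with the replicate number as a block gave Sec61b the same differences of 0.37 and 0.21 and called 0 members in any KO contrast. The comparison of array order has no blocked form.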
